A study of Mus musculus with 8 samples.

Results

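The nuclear-encoded genes of the respiratory chain and ATP synthase were measured in whole kidneys of control and SIK mutant mice. The set was taken by name from the protein-coding genes of GENCODE mouse release 21, as the *Nduf* genes of complex I, *Sdha* to *Sdhd* of complex II, the *Uqcr* genes of complex III, the *Cox4* to *Cox8* genes of complex IV and the *Atp5* genes of complex V. Of 55401 genes in each file, 107 records matched these names, 94 of them were coded as protein coding, and 90 had a mean expected count of at least 10 over the 8 kidneys. They comprised 36 subunit genes of complex I, 8 assembly factor genes of complex I (*Ndufaf1* to *Ndufaf8*), 4 genes of complex II, 8 of complex III, 17 of complex IV and 17 of complex V. The 4 protein-coding records under the minimum were *Cox4i2* (mean count 8.25), *Cox7b2*, *Cox8c* and a second record named *Atp5o*, the last 3 of which had a count of 0 in all 8 kidneys.

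RNA-Seq was done on whole kidneys of 4 control mice and 4 SIK mutant mice. By the labels, all 8 mice carried floxed alleles of *Sik1*, *Sik2* and *Sik3*, the genes of the salt-inducible kinases, and the mutants carried Six2-Cre in addition. Six2-Cre acts in nephron progenitors, so that the epithelium descending from them is recombined. Cells of other descent in the organ, among them stroma, vessels and blood cells, keep intact alleles. The controls were littermates without Cre according to the study, which also states that mice with Six2-Cre and both alleles of every *Sik* gene floxed did not survive and that it analysed mice heterozygous for the floxed *Sik1* allele, so the labels and the text differ on *Sik1*. No age or sex is given for these mice, and a whole kidney from 1 animal is taken as 1 sample.

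Respiratory complexes I, III and IV move electrons from NADH and ubiquinol to oxygen and pump protons across the inner mitochondrial membrane, complex II feeds in electrons from succinate, and complex V (ATP synthase) makes ATP as the protons return. Most subunits are encoded in the nucleus, and a small set of membrane subunits of complexes I, III, IV and V is encoded by the mitochondrial genome. The kidney is rich in mitochondria because tubules, the proximal tubule above all, spend much ATP on sodium transport. Some subunits of complex IV have isoforms that belong to heart, skeletal muscle or brown fat rather than to epithelia.

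The libraries held 10179648 to 10925100 expected counts. CPM below are counts relative to library size after scaling with TMM factors, which ranged from 0.90 in control 1 to 1.05 in control 3. *Sik3* measured 58.6 to 66.5 CPM in controls and 33.7 to 43.1 CPM in mutants (log2 fold change −0.67 ± 0.09 SE, FDR = 0.0697), with no overlap, whereas *Sik2* overlapped between groups (7.97 to 9.95 against 4.50 to 9.30 CPM) and *Sik1* was higher in mutants (43.4 to 54.1 against 36.8 to 43.1 CPM, FDR = 0.601). Reads of Y-linked genes were present in 6 kidneys, controls 1 and 2 and all 4 mutants, and near 0 in controls 3 and 4. The controls fell into the same pairs over all genes: the chi-square per degree of freedom was 9.71 between controls 1 and 2 and 9.80 between controls 3 and 4, but 38.3 to 53.8 between the pairs, against 9.44 to 15.4 among mutants. The main counts below are therefore given also for the 6 kidneys with Y-linked reads.

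Nearly all respiratory chain genes had a lower estimate in SIK mutant kidneys, by a small amount, and no single gene passed the threshold. Of the 89 members tested, 84 had a log2 fold change below 0, where 50.8% of all 14326 genes tested did, and the median member stood at −0.15 (−9.93%) against −0.0038 for all genes. No member reached an FDR of 0.05 by edgeR's quasi-likelihood test (lowest FDR 0.564, for *Ndufb10*), nor did any gene of the whole table (0.0% called). At an unadjusted p of 0.05, 15 members were lower and 0 were higher, beside a background of 3.59% of all genes lower, and 6.36% in either direction, at that p. DESeq2 gave 23 members at that unadjusted p, all lower (background 3.43%), and 0 at an adjusted p of 0.05 (lowest 0.113), while it called 67 genes of the whole table (0.468%). In 16 of 90 members the 4 control kidneys all lay above the 4 mutant kidneys in CPM, and in 0 members all below. Of the 89 tested, 15 did so, where 2.39% of all genes tested were lower without overlap and 1.65% were higher. All members were measured in the same 8 libraries, so these counts are not of independent observations. In whole-kidney RNA, fewer cells rich in mitochondria and less respiratory chain RNA per cell cannot be told apart.

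**Figure D1:**
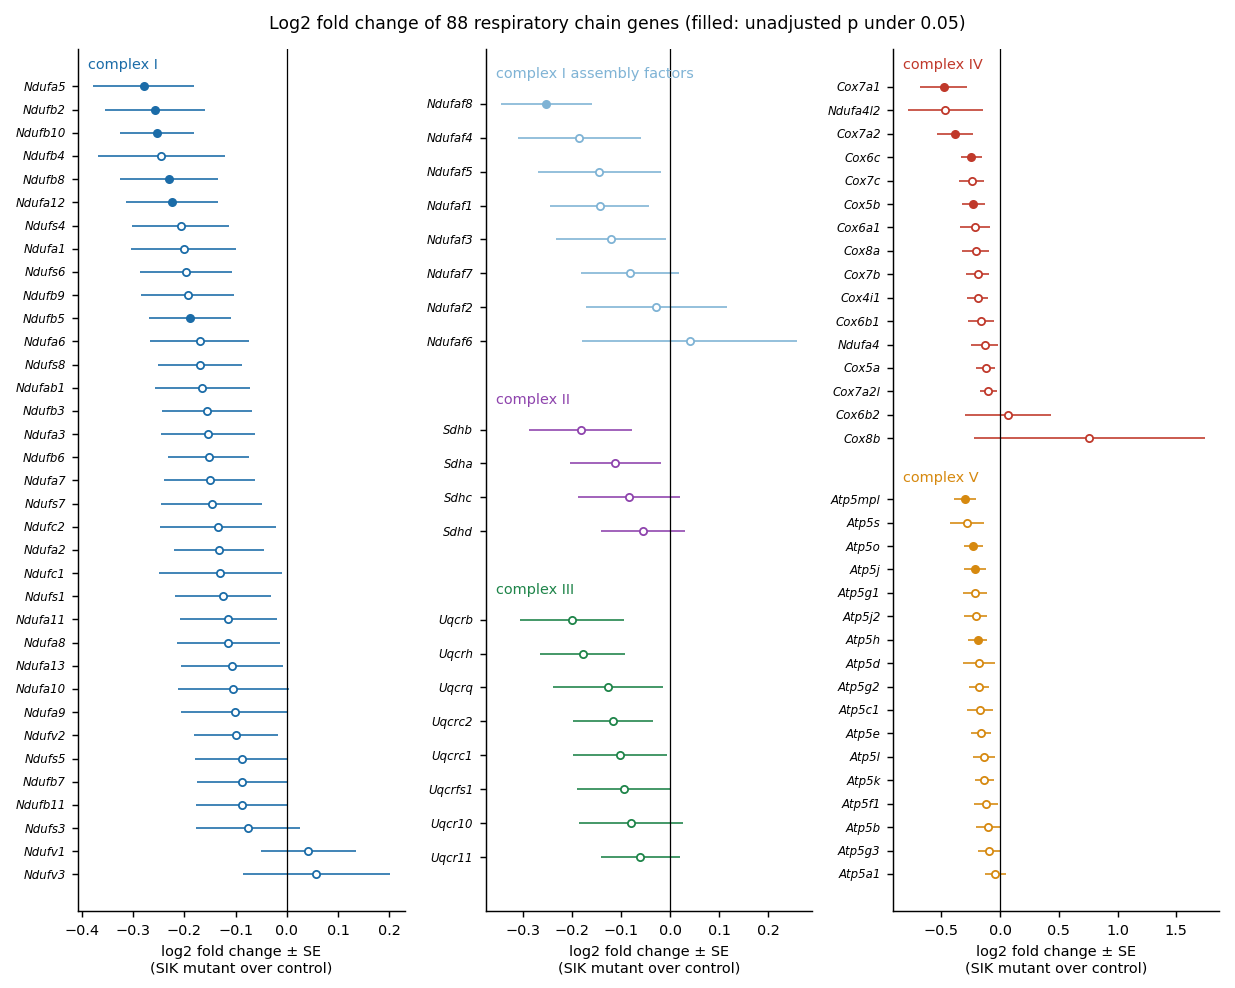
Log2 fold change (SIK mutant over control, edgeR, horizontal axis) of 88 of the 89 members tested, 1 gene per line, with the standard error as a bar and genes ordered within each complex. Filled points are the 15 members at an unadjusted p under 0.05, all to the left of 0, and 5 genes (*Ndufv1*, *Ndufv3*, *Ndufaf6*, *Cox6b2* and *Cox8b*) lie to the right. The 3 panels have different horizontal scales.

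Kidney by kidney the shift was uneven, and it did not separate the groups completely. Against each member's control mean, 24 of 90 members were lower in control 1, 22 in control 2, 60 in control 3 and 71 in control 4. In mutants 1 to 4 the numbers were 76, 89, 86 and 66. Mutants 2 and 3 were thus the lowest kidneys, with a median log2 ratio to the control mean of −0.23 and −0.26, and mutants 1 and 4 (−0.07 and −0.09) were close to control 4 (−0.09). The summed CPM of all 90 members was 21648, 21931, 20226 and 19485 in controls 1 to 4 and 19771, 18036, 17751 and 20017 in mutants 1 to 4. The mean of the sum was lower in mutants by a difference of −9.26% (20822 ± 1163 against 18894 ± 1165 CPM, SD, n = 4 each). Of the 2 controls without Y-linked reads, control 4 lay below mutants 1 and 4, and control 3 lay above all mutants. With these 2 controls left out, 87 of 89 members were below 0 (background 48.3%), the median was −0.20, and 22 members were lower at an unadjusted p of 0.05 (background 4.74%) while 1, *Cox8b*, was higher (background 11.1% in either direction). There, 0 members reached an FDR of 0.05 (lowest 0.0995, for *Cox8b*), although 21 genes of the whole table did (0.143%).

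Gene length moved with the result. Respiratory chain genes are short: the members' median effective length (the number of positions a fragment can start from, as RSEM gives it) was 466 bases, against 2228 for all genes tested. Among genes that are not members, the median log2 fold change was −0.05 for effective lengths up to 300, −0.08 from 300 to 600, −0.06 from 600 to 1000, −0.03 from 1000 to 2000, 0.01 from 2000 to 4000 and 0.07 above 4000. Within the same classes the members' medians were −0.15 (n = 11), −0.18 (n = 43), −0.13 (n = 18) and −0.10 (n = 16) up to 2000, below the other genes in each class. In a further fit, each kidney's own smooth trend on length, of expression relative to the gene's mean, was removed from all genes before testing. There, 79 members were still below 0 (background 48.3%), but the median was −0.07. Of the members, 1, not 15, had an unadjusted p under 0.05 (background 3.18% lower). With the trend drawn from the other genes only, 81 members were below 0 (background 48.5%), the median was −0.08 and 3 members passed that p (background 3.21% lower). The part of library preparation or RNA quality in the length trend was not tested.

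**Figure D2:**
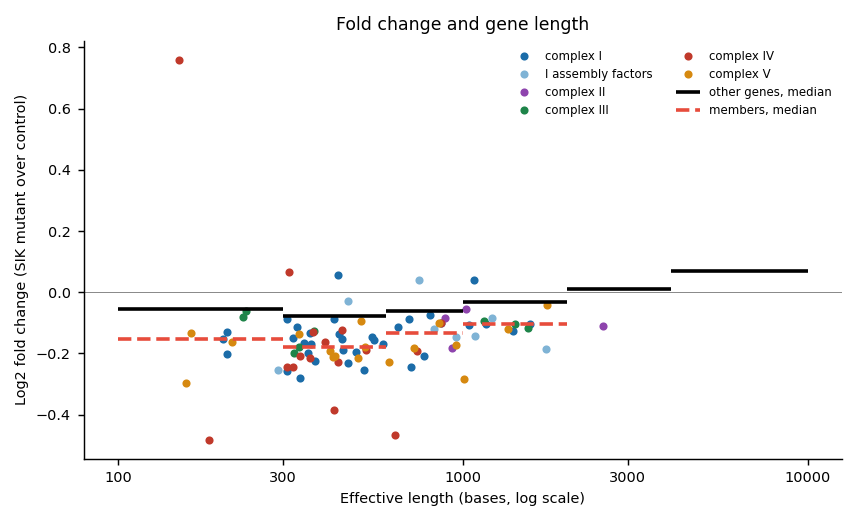
Log2 fold change (SIK mutant over control, vertical axis) of 88 of the 89 tested members against effective length in bases (log axis), coloured by complex. Black lines are medians of the other genes in 6 length classes, between −0.08 and 0.07 (the outer classes are open-ended), and dashed red lines the members' medians, which lie below the black ones in the 4 classes with more than 1 member.

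The estimates depended on the scaling as well, while the distance between the members and all genes changed little in the scalings given here. With library totals in place of TMM factors, the median over all genes moved to 0.05 and that of the members to −0.10, so the members stood 0.14 below all genes, as in the TMM fit (0.15). The TPM scale divides by length and forces each library to the same total. On log2(TPM + 1) the median over all genes was 0.09 and that of the members −0.07, a difference of −0.16. There, 66 of 89 members were below 0, where 29.3% of all genes were. Summed TPM of the members was 36525, 38972, 40805 and 39391 in controls and 40133, 36651, 34681 and 36534 in mutants. On this scale only control 3 lay above all mutants, and mutant 1 lay above controls 1, 2 and 4. The members made up 3.47% to 4.08% of all TPM in a kidney.

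By complex, the median log2 fold change was −0.15 for complex I, −0.13 for its assembly factors and −0.10 for complex II. It was −0.11 for complex III, −0.20 for complex IV and −0.18 for complex V. The medians of complexes II and III turned slightly positive on the TPM scale (0.01 and 0.0022), where that of all genes was 0.09. The median of all genes also applies to single genes given on the TPM scale below. The differences between complexes were not tested. Complex IV was the only one whose summed CPM did not overlap between groups, at 4482, 4703, 4265 and 4213 in controls and 4133, 3665, 3477 and 4097 in mutants (a difference of −13.0% between the means). Its summed TPM did overlap, at 10482.5 to 11882.4 in controls and 9637 to 11565.3 in mutants. Sums of complex V were 7274 to 8252 CPM in controls and 6725 to 7609 CPM in mutants, those of complex I 4634 to 5272 and 4324 to 4831 CPM, those of complex III 2023 to 2273 and 1875 to 2099 CPM, and those of complex II 1184 to 1365 and 1100 to 1205 CPM. Each of these 4 ranges overlapped.

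**Figure D3:**
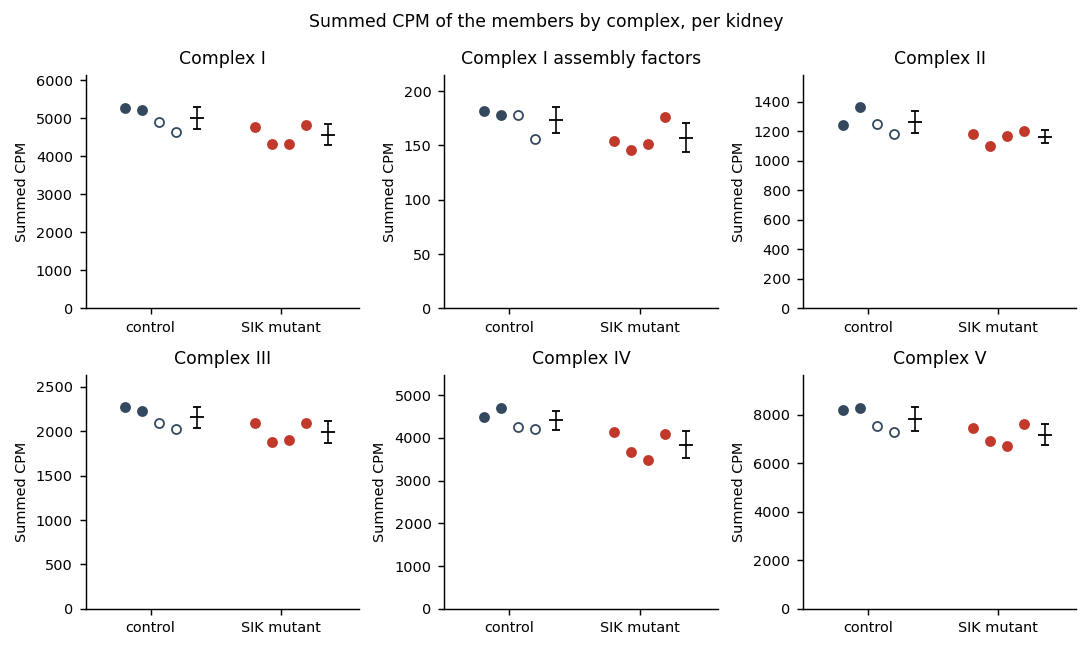
Summed CPM of the members of each complex (vertical axis, from 0) in each of 4 control (dark) and 4 SIK mutant (red) kidneys, with the mean and SD of each group beside the points. Open symbols are controls 3 and 4, which lack Y-linked reads. Groups overlap in every panel but that of complex IV (4213 to 4703 against 3477 to 4133 CPM).

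Complex I oxidises NADH. Its 7 catalytic core genes, which hold the flavin and the iron-sulfur clusters, had a median log2 fold change of −0.10, and 0 of 7 had an unadjusted p under 0.05. *Ndufv1*, the flavin-binding subunit, measured 212, 213, 184 and 176 CPM in controls and 199, 194, 205 and 208 CPM in mutants (log2 fold change 0.04 ± 0.09, FDR = 0.964). *Ndufs8*, an iron-sulfur subunit, measured 160, 166, 160 and 154 CPM in controls and 151, 130, 138 and 149 CPM in mutants (−0.17 ± 0.08, FDR = 0.794), without overlap. The core genes *Ndufs1*, *Ndufs3*, *Ndufs7* and *Ndufv2* lay between −0.15 and −0.08 and overlapped between groups, and the sign of *Ndufs3* changed on the TPM scale. *Ndufs1* shares its locus with *Eef1b2* on the opposite strand (91.3 CPM, beside 205 for *Ndufs1*), and whether counting used strand is not given in the sources used here.

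The 29 accessory genes of complex I, which stabilise the core, had a median of −0.15, with 28 below 0. At an unadjusted p under 0.05, 6 were lower (background 3.59%): *Ndufa5*, *Ndufa12*, *Ndufb2*, *Ndufb5*, *Ndufb8* and *Ndufb10*. *Ndufb10* (ENSMUSG00000040048.14), a subunit of the membrane arm, measured 120, 119, 125 and 116 CPM in controls and 105, 95.7, 103 and 99.0 CPM in mutants. All controls lay above all mutants, and the fitted difference was −16.1% (log2 fold change −0.25 ± 0.07, unadjusted p = 0.00602, FDR = 0.564). *Ndufb8*, of the same arm, measured 256, 259, 271 and 251 CPM in controls and 235, 213, 193 and 243 CPM in mutants (−0.23 ± 0.10, FDR = 0.768), again without overlap. *Ndufa5* had the lowest estimate of the complex (−0.28 ± 0.10, FDR = 0.713), at 62.4, 56.6, 66.7 and 74.6 CPM in controls and 54.0, 52.0, 50.2 and 58.3 CPM in mutants, where mutant 4 overlapped with control 2. *Ndufa12*, *Ndufb2* and *Ndufb5* lay between −0.26 and −0.19 with overlapping groups. *Ndufb2* and *Ndufb5* share part of their loci with genes on the opposite strand, *Braf* (33.1 CPM) and *Mrpl47* (18.8 CPM). At the other end, *Ndufv3* measured 218, 186, 153 and 142 CPM in controls and 175, 169, 174 and 209 CPM in mutants (0.06 ± 0.14, FDR = 0.967), with controls 1 and 2 far above controls 3 and 4. It turned to −0.14 in the 6 kidneys with Y-linked reads. Per length, *Ndufa3* was the most abundant accessory gene (mean 561 TPM) and *Ndufs4*, at −0.21 ± 0.10, the least (78.5 TPM).

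Assembly factors put complex I together and leave it. The 8 *Ndufaf* genes were lower in level (median 22.1 TPM, against 237 TPM for complex I subunits). Of them *Ndufaf8* had an unadjusted p under 0.05, at 27.4, 26.1, 23.7 and 25.8 CPM in controls and 22.2, 20.2, 19.95 and 24.1 CPM in mutants (−0.25 ± 0.09, FDR = 0.715), where mutant 4 overlapped with control 3. *Ndufaf4* and *Ndufaf5* stood at −0.19 and −0.15, *Ndufaf2* at −0.03 and *Ndufaf6* at 0.04, and the last 2 changed sign under several settings. *Ndufaf2* overlaps *Smim15*, a more abundant gene on the opposite strand (27.8 CPM, beside 9.90).

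Complex II is succinate dehydrogenase, which is also an enzyme of the citrate cycle and is encoded wholly in the nucleus. *Sdha*, the flavoprotein, measured 413, 473, 466 and 436 CPM in controls and 395, 397, 455 and 409 CPM in mutants (−0.11 ± 0.09, FDR = 0.895), and *Sdhb*, the iron-sulfur protein, 331, 346, 338 and 285 CPM and 307, 264, 262 and 312 CPM (−0.18 ± 0.10, FDR = 0.810). *Sdhc* and *Sdhd*, the membrane anchors, stood at −0.08 and −0.06. Groups overlapped in all 4 genes. On the TPM scale *Sdha*, *Sdhc* and *Sdhd* turned positive, but stayed below the median over all genes (0.09).

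Complex III passes electrons from ubiquinol to cytochrome c. All 8 members had an estimate below 0 and 0 had an unadjusted p under 0.05. *Uqcrc2*, a core protein, measured 371, 348, 340 and 343 CPM in controls and 334, 311, 314 and 334 CPM in mutants (−0.12 ± 0.08, FDR = 0.864) without overlap. Its estimate on the TPM scale was 0.04, beside a median of 0.09 over all genes. *Uqcrfs1*, the Rieske iron-sulfur protein, stood at −0.09 ± 0.10. *Uqcrb* and *Uqcrh* had the lowest estimates (−0.20 ± 0.11 and −0.18 ± 0.09), and *Uqcr10* and *Uqcr11*, the most abundant of the complex per length (1138 and 891 TPM), the highest (−0.08 and −0.06). The values of *Uqcr10* and *Uqcr11* crossed 0 once the length trend was removed (0.02 and 0.04).

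Complex IV reduces oxygen to water. *Cox6c* had the lowest p of its nuclear subunits, at 346, 346, 325 and 374 CPM in controls and 309, 278, 277 and 309 CPM in mutants, with no overlap (−0.24 ± 0.09, unadjusted p = 0.0218, FDR = 0.715). It shares part of its locus with *Vps13b* on the opposite strand (39.8 CPM, beside 320). *Cox5b* measured 372, 380, 406 and 387 CPM in controls and 369, 322, 293 and 334 CPM in mutants (−0.23 ± 0.10, FDR = 0.768), where mutant 1 came within 4 CPM of control 1. *Cox4i1* (−0.19 ± 0.09) and *Cox7a2l* (−0.10 ± 0.07) were also free of overlap, at 544 to 580 against 446 to 519 CPM and at 120.46 to 127 against 108 to 120.04 CPM, where the nearest kidneys of *Cox7a2l* were less than 1 CPM apart. *Cox7a2l* encodes a factor of supercomplexes, assemblies of complexes III and IV, and its estimate was 0.0016 on the TPM scale. *Ndufa4*, once counted with complex I and now with complex IV, stood at −0.13 ± 0.11 with overlap. Its relative *Ndufa4l2* was rare (4.82 CPM, beside 211 CPM of *Shmt2* on the opposite strand), and its estimate was −0.47 ± 0.32.

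In the isoform families of complex IV the form of epithelia predominated in every kidney. *Cox4i1* made up at least 99.81% of *Cox4* TPM in each kidney, *Cox6a1* at least 99.54% of *Cox6a*, *Cox6b1* at least 97.4% of *Cox6b* and *Cox8a* at least 94.85% of *Cox8*. *Cox7a2*, the ubiquitous isoform, held 84.4% to 90.9% of the sum of *Cox7a1* and *Cox7a2*, and the mean shares of the groups were within 1 SD of each other (87.4 ± 2.69% in controls and 87.8 ± 2.24% in mutants, n = 4). *Cox7a2* measured 172, 230, 201 and 162 CPM in controls and 154, 127, 123 and 182 CPM in mutants (−0.38 ± 0.16, unadjusted p = 0.0345, FDR = 0.757). *Cox7a1*, the heart and muscle isoform that is also high in brown fat, measured 10.9, 10.4, 17.1 and 9.89 CPM in controls and 10.4, 6.96, 8.91 and 8.27 CPM in mutants (−0.48 ± 0.20, unadjusted p = 0.0407, FDR = 0.768). Both genes overlapped between groups. The abundant *Cox6a1*, *Cox6b1* and *Cox8a* stood at −0.21, −0.16 and −0.21, with overlap.

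*Cox8b* and *Cox6a2*, the forms of muscle and brown fat, varied widely between single kidneys. *Cox8b* was at 0, 0.49, 16.1 and 3.06 CPM in controls and at 3.27, 7.76, 14.1 and 8.76 CPM in mutants (0.76 ± 0.98, FDR = 0.936). The count of 0 in control 1 allows up to 0.304 CPM. The same kidneys were high in the brown fat genes *Ucp1*, the uncoupling protein, and *Cidea*, a lipid droplet protein. *Ucp1* was at 0, 1.28, 85.2 and 5.17 CPM in controls and 7.77, 22.9, 47.3 and 44.6 CPM in mutants, and *Cidea* at 0, 0.59, 23.2 and 1.14 CPM and 3.71, 10.3, 19.7 and 12.9 CPM. The 5 brown fat markers summed to 0 to 111 CPM in controls and 11.7 to 70.7 CPM in mutants, with *Dio2* and *Elovl3* at or near 0 throughout, and 7 white fat markers to 22.3 to 219 CPM and 166 to 262 CPM. The 7 skeletal muscle markers summed to no more than 1.41 CPM in any kidney, with *Myh4* and *Tnnc2* at 0 in all. *Cox6a2* was rare and highest in control 2, a kidney low in the fat genes, at 0.81, 4.25, 1.41 and 1.75 CPM in controls and 0.62, 0.45, 0.58 and 0.77 CPM in mutants. Its mean count of 14.1 kept it out of the fit over all genes, and the 2-sided exact permutation test over the 8 kidneys gave p = 0.0286, the smallest that 70 assignments allow. *Cox6b2*, the testis form, was at 2.96 to 7.04 CPM in controls and 3.21 to 8.39 CPM in mutants (0.07 ± 0.37). The part of attached fat in the level of *Cox8b* and *Cox7a1* was not tested.

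**Figure D4:**
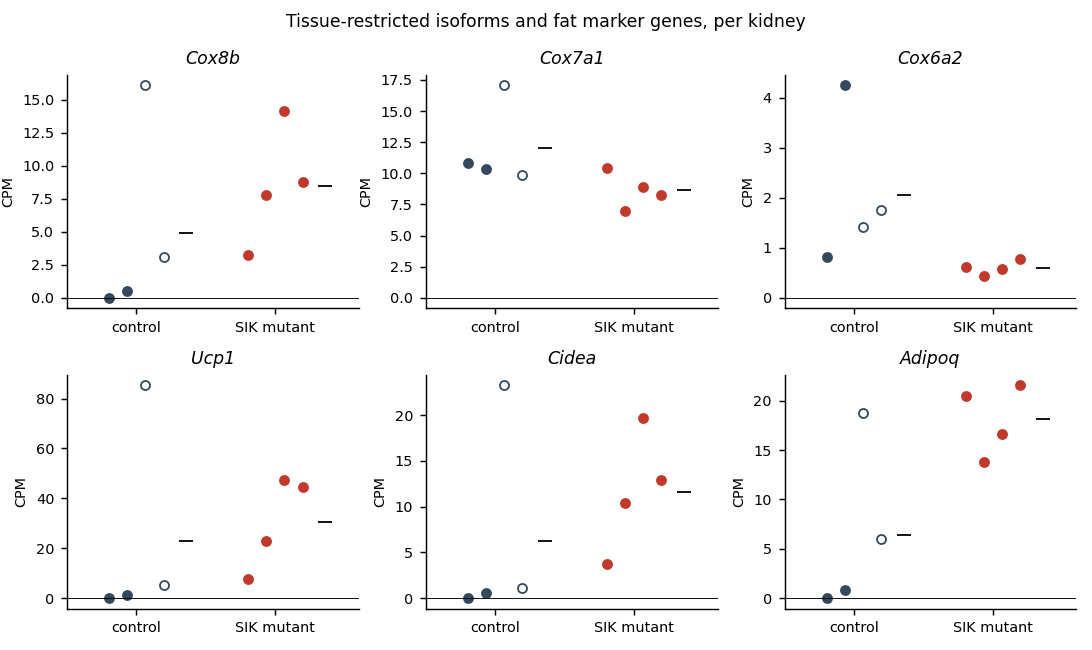
CPM (vertical axis) of the tissue-restricted isoforms *Cox8b*, *Cox7a1* and *Cox6a2* and of the fat markers *Ucp1*, *Cidea* and *Adipoq* in each control (dark) and SIK mutant (red) kidney, with group means as dashes and open symbols for the controls without Y-linked reads. Control 3 is the highest control for *Cox8b* (16.1 CPM), *Cox7a1* (17.1 CPM), *Ucp1* (85.2 CPM), *Cidea* (23.2 CPM) and *Adipoq* (18.8 CPM). Among mutants, *Cox8b* is highest in mutant 3 (14.1 CPM), but *Cox7a1* is highest in mutant 1 (10.4 CPM). *Cox6a2* peaks in control 2 (4.25 CPM).

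Complex V couples the proton flow to ATP synthesis through a catalytic F1 head, a rotating c ring and a peripheral stalk that holds the head still. Of its 4 stalk genes, 3 were lower without overlap (*Atp5h*, *Atp5j* and *Atp5o*), where 2.39% of all genes tested were. The same 3 had an unadjusted p under 0.05 (background 3.59% lower). With the length trend of the other genes removed, their estimates were −0.11, −0.13 and −0.15. A difference between stalk genes and other members was not tested. *Atp5o*, which links the stalk to the head, measured 297, 311, 295 and 294 CPM in controls and 275, 252, 241 and 254 CPM in mutants (−0.23 ± 0.08, unadjusted p = 0.0199, FDR = 0.715). *Atp5j* measured 218, 202, 199 and 191 CPM in controls and 190, 172, 157 and 180 CPM in mutants (−0.21 ± 0.09, FDR = 0.768), where mutant 1 came within 2 CPM of control 4. *Atp5h* measured 182, 186, 206 and 194 CPM in controls and 176, 165, 160 and 172 CPM in mutants (−0.19 ± 0.08, FDR = 0.768). *Atp5j* overlaps the opposite-strand gene *Gabpa* (31.9 CPM). The summed CPM of the stalk genes was 1044 to 1129 in controls and 896 to 1031 in mutants, without overlap. Their summed TPM overlapped, at 1562.9 to 1824.4 in controls and 1470.3 to 1704.5 in mutants.

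The 5 F1 genes were all below 0, with a median of −0.16, and 0 had an unadjusted p under 0.05. *Atp5b*, the catalytic beta subunit and the most abundant member per length (2670 TPM), measured 2379, 2442, 2161 and 1989 CPM in controls and 2077, 1989, 2028 and 2266 CPM in mutants (−0.10 ± 0.11, FDR = 0.917), and *Atp5a1*, the alpha subunit, 1656, 1732, 1601 and 1549 CPM and 1639, 1616, 1528 and 1572 CPM (−0.04 ± 0.09, FDR = 0.964), with a sign that depended on the scaling. *Atp5e*, the epsilon subunit, was at 112 to 119 CPM in controls and 91.6 to 111 CPM in mutants (−0.16 ± 0.09) without overlap. In the membrane part, *Atp5mpl* had the lowest p of the complex (75.1, 77.0, 67.3 and 71.5 CPM against 68.8, 58.0, 54.4 and 55.6 CPM, −0.30 ± 0.09, unadjusted p = 0.0110, FDR = 0.672), with mutant 1 above control 3. *Atp5j2* and *Atp5k*, the f and e subunits, did not overlap and stood at −0.21 ± 0.10 and −0.13 ± 0.08. *Atp5s*, a factor and not a subunit, was low in level (12.9 TPM) at −0.28 ± 0.15.

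The c ring is built from identical proteins made by 3 genes. *Atp5g1* held 38.7% to 41.6% of their summed TPM in controls and 36.7% to 39.5% in mutants, *Atp5g2* 18.6% to 20.6% and 19.5% to 19.9%, and *Atp5g3* 37.8% to 42.7% and 40.9% to 43.4%. The mix therefore overlapped between groups for each gene. In CPM, *Atp5g2* did not overlap (204 to 219 against 174 to 202 CPM, −0.18 ± 0.09), whereas *Atp5g1* (−0.21 ± 0.10) and *Atp5g3* (−0.09 ± 0.10) did, and *Atp5g3* was at 0.0025 on the TPM scale.

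**Figure D5:**
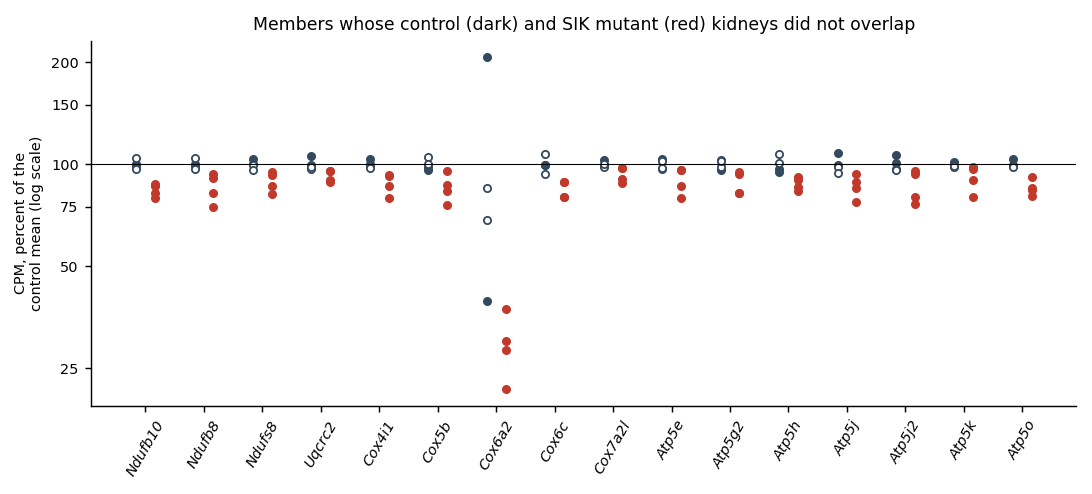
CPM of each kidney as percent of the control mean (log axis) for the 16 members in which all 4 controls (dark) lay above all 4 SIK mutants (red). Open symbols are the controls without Y-linked reads. In 15 of the 16 genes the groups sit close together, and *Cox6a2* spreads most, from 4.25 CPM in control 2 to 0.45 CPM in mutant 2.

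Counts of near-identical copies bear on some of these genes, since many have processed pseudogenes. RSEM's posterior standard deviation of the count, which measures how far reads could be shared otherwise, was over 1% of the count in 1 member, *Ndufb4* (up to 1.90%). Of the 90 members, 24 overlap a gene with a mean of at least 1 CPM, and in 13 the neighbour has at least 10% of the member's CPM.

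Promoter sequences were available for 73 members (250 bases before to 50 bases after the start of the gene, RefSeq, GRCm38.p6), and are shown for members that had both an unadjusted p under 0.05 and no overlap and whose promoter holds a motif of a factor known for respiratory genes. Searched on both strands were TGCGCA, the core of the site of NRF1, CCGGAAG, the core for GABPA, AAGGTCA, the core for the estrogen-related receptors, and AAGATGG, the core for YY1. TGCGCA was held by 18 of 73 members (24.7%) and 8.79% of all 27025 genes with a promoter, CCGGAAG by 18 (24.7%) and 9.93%, AAGATGG by 11 (15.1%) and 7.28%, and AAGGTCA by 8 of 73 and 5.38%. At least 1 of these 4 was in 40 members (54.8%) and 27.2% of all promoters, while the TATA core TATAAA was in 6 members (8.22%) and 15.7% of all. The promoters of all genes were not limited to genes tested in these kidneys. Below, capitals mark the motifs, and each sequence reads 5′ to 3′ on the strand of the gene. The promoters are those of *Ndufb10* (chr17:24724374-24724673, minus strand, TGCGCA from position −3 relative to the start), *Ndufb8* (chr19:44555393-44555692, minus strand, TGCGCA from position 6 and AAGATGG from position 39), *Cox5b* (chr1:36691237-36691536, plus strand, TGCGCA from position −52), *Atp5j* (chr16:84834927-84835226, minus strand, AAGATGG from position −88 and CCGGAAG from position −61) and *Atp5h* (chr11:115419870-115420169, minus strand, CCGGAAG read on the other strand, as CTTCCGG from position −38).

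Ndufb10: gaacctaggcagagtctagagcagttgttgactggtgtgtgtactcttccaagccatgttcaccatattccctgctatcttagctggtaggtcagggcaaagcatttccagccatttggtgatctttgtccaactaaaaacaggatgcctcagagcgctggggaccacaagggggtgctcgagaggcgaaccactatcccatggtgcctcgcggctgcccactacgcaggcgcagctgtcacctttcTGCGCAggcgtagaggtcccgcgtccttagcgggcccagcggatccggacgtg

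Ndufb8: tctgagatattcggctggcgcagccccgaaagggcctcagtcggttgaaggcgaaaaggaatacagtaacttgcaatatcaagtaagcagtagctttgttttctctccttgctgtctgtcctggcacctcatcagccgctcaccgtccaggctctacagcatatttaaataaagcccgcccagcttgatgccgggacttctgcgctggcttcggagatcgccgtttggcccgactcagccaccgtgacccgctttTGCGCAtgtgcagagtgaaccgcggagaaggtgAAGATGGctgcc

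Cox5b: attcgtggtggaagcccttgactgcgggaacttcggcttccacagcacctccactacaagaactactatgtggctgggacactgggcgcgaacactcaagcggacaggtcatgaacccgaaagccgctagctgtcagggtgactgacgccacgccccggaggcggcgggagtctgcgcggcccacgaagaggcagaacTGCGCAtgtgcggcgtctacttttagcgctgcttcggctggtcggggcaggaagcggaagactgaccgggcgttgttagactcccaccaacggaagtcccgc

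Atp5j: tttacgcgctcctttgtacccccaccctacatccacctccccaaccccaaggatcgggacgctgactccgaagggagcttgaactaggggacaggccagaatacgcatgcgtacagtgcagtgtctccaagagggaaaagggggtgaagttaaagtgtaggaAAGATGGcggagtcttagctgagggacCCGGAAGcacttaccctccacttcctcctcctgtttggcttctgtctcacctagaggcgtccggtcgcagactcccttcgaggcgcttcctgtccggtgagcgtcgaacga

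Atp5h: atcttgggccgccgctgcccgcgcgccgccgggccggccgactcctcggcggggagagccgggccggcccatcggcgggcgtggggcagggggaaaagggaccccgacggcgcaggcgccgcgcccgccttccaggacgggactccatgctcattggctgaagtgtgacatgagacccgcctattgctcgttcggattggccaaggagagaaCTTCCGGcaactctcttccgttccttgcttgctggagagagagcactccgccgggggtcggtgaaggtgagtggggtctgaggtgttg

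The promoter of *Atp5o* (chr16:91931581-91931880, minus strand) had none of these letters in its 300 bases. Genes that rank with these by p but showed overlap held other combinations, TGCGCA in *Ndufa5*, CCGGAAG and AAGATGG in *Ndufaf8*, AAGGTCA in *Ndufb2*, and none of the 4 in *Ndufa12*, *Ndufb5*, *Cox7a1* and *Cox7a2*. No promoter sequence was available for *Cox6c*, which also had an unadjusted p under 0.05 and no overlap, or for *Atp5mpl*. A match of letters in a promoter does not show that a factor binds there.

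The factors that act on such promoters, and other genes of the pathway, gave the following. Over all genes tested, 50.8% were below 0, and 6.36% had an unadjusted p under 0.05 in either direction. Among 16 regulators of respiratory gene transcription, 5 were below 0 and 11 above (median log2 fold change 0.05). *Perm1*, a muscle regulator of this program, was the 1 of them with an unadjusted p under 0.05, at 6.80, 5.83, 10.9 and 9.11 CPM in controls and 2.12, 4.82, 4.55 and 6.25 CPM in mutants (−0.89, unadjusted p = 0.0191, FDR = 0.713), with overlap. *Ppargc1a*, the coactivator PGC-1 alpha, stood at −0.06, *Esrra* at −0.18, *Nrf1* at 0.18, *Gabpa* at 0.04 and *Tfam*, the packaging factor of mitochondrial DNA, at 0.03, and these 5 overlapped between groups. Of 39 assembly factors of complexes I to V outside the name rule, 38 were tested and 27 were below 0 (median −0.07). An unadjusted p under 0.05 was seen in 2 of the 38 (background 6.36% in either direction). These were *Acad9* for complex I (−0.35, edgeR FDR = 0.757) and *Coa3* for complex IV (−0.17, edgeR FDR = 0.768), both lower. Of 19 genes of the citrate cycle and of mitochondrial content, among them *Cs*, *Vdac1* and *Tomm20*, 14 were below 0 with a median of −0.04 and a range of −0.09 to 0.07, and 0 had an unadjusted p under 0.05. *Cyc1*, the cytochrome c1 of complex III, and *Cycs*, cytochrome c, stood at −0.09 and 0.0039. The 13 protein-coding genes of the mitochondrial genome had 10 below 0 and 3 above (median −0.11), with 0 at an unadjusted p under 0.05. Their range of −0.25 to 0.29 was set by *mt-Atp6* and *mt-Nd4l*, whose counts were uncertain, with posterior standard deviations of up to 51.4% and 68.5% of the count. Counts of *mt-Co2*, *mt-Co3* and *mt-Nd3*, all with estimates below 0, were uncertain too (up to 66.7%, 95.6% and 18.0%).

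Markers of the kidney's cell types differed between kidneys too. As a background, 50.8% of all genes tested were below 0, and 6.36% had an unadjusted p under 0.05 in either direction. The 9 proximal tubule markers summed to 42621, 37878, 19438 and 20502 CPM in controls and 24255, 24627, 24156 and 32362 CPM in mutants, largely by *Kap*, which is androgen dependent (29701, 23937, 9015 and 9409 CPM in controls). Of these 9, 8 were below 0 (median −0.19) and 2 had an unadjusted p under 0.05, both lower, *Slc5a2* (−0.67) and *Miox* (−0.34), and none was at 0. All 4 intercalated cell markers were below 0 (median −0.25, sums of 136 to 202 and 128 to 149 CPM). Of them, 2 had an unadjusted p under 0.05, *Foxi1* (−0.67) and *Atp6v1g3* (−0.29). All 3 markers of the distal convoluted tubule were below 0 (median −0.54, sums of 660 to 1089 and 512 to 794 CPM). Of these, *Trpm6* had an unadjusted p under 0.05 and no overlap (17.7 to 23.8 against 9.53 to 16.3 CPM, −0.72 ± 0.17, edgeR FDR = 0.434). The 3 thick ascending limb markers had a median of 0.11 (sums of 2800 to 3681 and 2853 to 4218 CPM), with *Cldn16* higher at an unadjusted p under 0.05 (0.60), and the 4 principal cell markers a median of 0.13 with 0 at that p (sums of 456 to 820 and 614 to 905 CPM). Medians were −0.04 for 4 podocyte markers, −0.07 for 4 endothelium markers and 0.02 for 6 markers of pericytes and smooth muscle. The 2 immune markers tested had a median of 0.24. In each of these lists, 0 genes had an unadjusted p under 0.05. The part of these cell types in the level of the respiratory chain genes was not tested.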

How the data were processed

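Messenger RNA libraries of 8 whole kidneys (4 control, 4 SIK mutant) were sequenced on a BGISEQ500. The submitters' processing notes name FastQC, STAR 2.7.2b, RSEM 1.3.0, DESeq2 and mm10, and strand use is not given in the sources used here. As deposited, expected counts are RSEM estimates of the reads of each gene without normalisation, and the deposited TPM values are scaled to gene length and library total. Effective lengths and posterior standard deviations of the counts, other deposited values, are RSEM's. Symbols came from GENCODE mouse release 21 by Ensembl ID without version (55141 of 55401 matched).

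Groups came from titles and genotypes. Counts were rounded and tested with edgeR 4.0.16 (filterByExpr, TMM, quasi-likelihood F test, no covariates) in R 4.3.3 over all 14326 genes kept, with Benjamini-Hochberg adjustment (FDR threshold 0.05), and errors of fold changes are standard errors. A gene chosen singly was tested on CPM with a 2-sided exact permutation test. The scripts were tested on simulated data. Alternatives were other scalings, DESeq2 1.42.0, no filter, limma-trend (limma 3.58.1) on log2(TPM + 1) and log2(TPM + 0.1), the replicate number as a block, the 6 kidneys with Y-linked reads, each kidney left out and, chosen after seeing the data, removal of a lowess length trend (span 0.3) from all genes or as fitted to the genes that are not members. Replicate numbers did not pair the samples. Totals of 10179648 to 10925100 set the precision, the upper limit for a count of 0 covers counting error only, and nothing states separate litters, so p-values measure the spread between these mice. Promoters came from RefSeq (GRCm38.p6).

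The values of 1 member are not reported here, and it is left out of the plots of single members, but it stays in the counts, medians and sums. Members and gene lists were chosen with earlier results of these data known. Genes named are those of isoform families and catalytic cores, the extremes of each complex in fold change and TPM, and members with an unadjusted p under 0.05 or without overlap. For other pathway genes the rule was an unadjusted p under 0.05, with Ppargc1a, Esrra, Nrf1, Gabpa and Tfam. Cs, Vdac1, Tomm20, Cyc1, Cycs and the marker genes were named after their values were seen.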

Additional observations from a re-analysis of the deposited data

Results flagged for a closer look

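In 7 of 130 groups of 4 kidneys tested, 1 kidney lay apart from the other 3 by Dixon's criterion at 95%, where chance alone gives about 1 in 20, or 6.5. Control 3 stood apart for *Cox7a1*, at 17.1 CPM beside 9.89 to 10.9 CPM in the other controls. This kidney was also the highest control for *Cox8b* and the fat markers. Among mutants, *Cox8b* was highest in mutant 3 (14.1 CPM), but *Cox7a1* was highest in mutant 1 (10.4 CPM). Control 2 stood apart for *Atp5o*, at 311 CPM beside 294 to 297 CPM, and for *Ndufv2*, at 174 CPM beside 180 to 181 CPM. Mutant 1 stood apart for *Ndufa12*, at 133 CPM beside 117 to 119 CPM. Mutant 4 stood apart for *Ndufaf6*, at 13.5 CPM beside 7.46 to 7.94 CPM, and for *Ndufv3*, at 209 CPM beside 169 to 175 CPM. The summed CPM of the 8 complex I assembly factor genes was 156 in control 4, beside 178 to 181 in the other controls.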

How the results depend on the processing

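No setting brought a member to an FDR under 0.05, and the number of members at an unadjusted p under 0.05 ran from 1 to 23 (15 as reported). It was 4 with library totals only, 23 with DESeq2, 2 with limma-trend on either TPM scale, 23 in the 6 kidneys with Y-linked reads, and 1 or 3 with the length trend of all genes or of the other genes removed. Leaving out 1 kidney gave 3 to 22 members, with 6 without control 2, 5 without mutant 2 and 3 without mutant 3, and medians of −0.19 to −0.12. With the replicate number as a block it was 6, but the deviations of same-numbered kidneys correlated at −0.19, 0.043, 0.063 and −0.34, so the numbers do not pair the samples. The members' median was −0.0729 with the length trend of all genes removed, −0.0692 on log2(TPM + 1) and −0.070 on log2(TPM + 0.1), where the median over all genes was 0.0882 and 0.106. On those 2 scales complex I was at −0.0558 and −0.0561, complex II at 0.0111 and 0.0112, complex III at 0.0022 and 0.00221, and complex V at −0.086 and −0.0867. Among 57 named members, 41 kept their sign under all 19 alternatives. The signs that turned were, on the TPM scales (pseudocount 1, then 0.1), *Atp5a1* (0.0876, 0.0877), *Atp5g3* (0.00247, 0.00247), *Cox7a2l* (0.00156, 0.00155), *Ndufaf2* (0.062, 0.0646), *Ndufaf6* (−0.0833, −0.0903), *Ndufs3* (0.0318, 0.0319), *Sdha* (0.00205, 0.00207), *Sdhc* (0.0203, 0.0203), *Sdhd* (0.0454, 0.0457), *Uqcr10* (0.000238, 0.000237), *Uqcr11* (0.0162, 0.0162), *Uqcrc2* (0.0407, 0.0409) and *Uqcrfs1* (0.0112, 0.0112). With the length trend of all genes, then of the other genes, removed they were *Ndufaf2* (0.0617, 0.0543), *Uqcr10* (0.022, 0.00783) and *Uqcr11* (0.0416, 0.0276). With library totals they were *Atp5a1* (0.0119) and *Ndufaf2* (0.0243), and in the 6 kidneys *Ndufaf6* (−0.0615), *Ndufv1* (−0.0634) and *Ndufv3* (−0.141). Over the fits with 1 kidney left out, estimates that turned ranged from −0.262 to 0.283 for *Cox6b2*, −0.101 to 0.0841 for *Ndufaf2*, −0.209 to 0.124 for *Ndufaf6*, −0.00744 to 0.0823 for *Ndufv1* and −0.0294 to 0.181 for *Ndufv3*. The cause of these changes was not tested.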
